A study of Arabidopsis thaliana with 14 samples.

Results

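The comparison described here is that of the quadruple brassinosteroid receptor mutant *bri1brl1brl3bak1* (hereafter *quad*) with the Col-0 wild type (WT) of *Arabidopsis thaliana*, both kept watered for 4 days. It comprises 2 of the 14 two-colour Agilent arrays of a drought time course. They were chosen by their labels, which name WT against quad at day 4 with water. Each array held RNA of *quad* and of WT together, with *quad* in Cy5 and WT in Cy3 in replicate 1 and the dyes exchanged in replicate 2, so 1 *quad*/WT ratio was obtained per gene and array. All loci named on the array entered, of which 22811 of 28327 could be tested. The series text gives whole plants 28 days old, and the growth notes and methods put them somewhat younger at the start. Each biological replicate pooled several rosettes, so that the sources leave it unsettled whether roots were in the samples. The replicate number is also the dye orientation. *quad* combines the alleles *bri1-301*, *brl1-1* and *brl3-1* of 3 receptor genes with *bak1-3* of the co-receptor gene BAK1, and WT carries none of them. Neither genotype had received a treatment other than regular watering, and day 4 counts from the start of a course in which sister plants were kept dry. The other 12 arrays cover day 0, days 2 and 6 with water, and days 2, 4 and 6 without it, with 2 arrays for each condition.

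Brassinosteroids (BRs) are plant steroid hormones that are perceived at the cell surface. BRI1 is the main receptor, BRL1 and BRL3 are related receptors of vascular tissue, and BAK1 is a co-receptor that also serves receptors of innate immunity. Signalling through this complex promotes cell elongation and represses the hormone's own synthesis, and mutants of it are known for dwarf stature, late flowering and poor male fertility. The comparison asked how the transcriptome of plants with mutations in these genes differs from WT under watering, at the same day as a drought sample.

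On the 2 arrays, *quad* RNA gave a signal well above background for 94% and 91.8% of the genes tested and WT RNA for 95.2% and 92%, and no spot was saturated. Over all genes the ratios of both arrays correlated with r = 0.734, and their difference had an SD of 0.294 on the log2 scale. Genes are not independent replicates, and in the other 6 conditions this r lay between 0.523 and 0.888. The median ratio of all genes was -0.01 (log2). The arrays came from different scan runs, each of which held arrays of other conditions but only 1 of this one, so the value of each array is also its value within its run. Standard errors (SE) and adjusted p-values come from limma fitted on all 14 arrays, which lends each gene the spread of the other conditions.

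The transcripts of the mutated genes were read first. BAK1 (AT4G33430) had normalised log2 intensities of 10.47 and 10.51 in *quad*, against 12.72 and 12.55 in WT. Its log2 ratio was -2.14 (SE 0.0939, n = 2, limma adjusted p 4.21e-08). BRL1 (AT1G55610) measured 6.71 and 6.93 in *quad*, against 8.44 and 8.64 in WT, and BRL3 (AT3G13380) measured 7.75 and 7.76 in *quad*, against 9.35 and 9.29 in WT. Their log2 ratios were -1.72 and -1.56 (SE 0.223 and 0.144, limma adjusted p 0.000243 and 1.41e-05). The groups did not overlap for these 3 genes, but the share of all genes tested of which this holds was not counted. BRI1 (AT4G39400), whose allele in *quad* is a point mutation that leaves the transcript in place, stood at 12.14 and 12.56 in *quad* and at 12.18 and 12.18 in WT, a log2 ratio of 0.17 (SE 0.143, limma adjusted p 0.51). With the mean of all probes of a locus in place of the brightest probe, BRL1 and BRL3 gave -1.10 and -1.41 and were short of the log2 limit used below.

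A gene was called when its limma adjusted p was under 0.05 and its log2 ratio was beyond 1.5 in either direction, a 2.83-fold difference. By this rule 237 genes were called, 1.04% of the 22811 tested. They were unevenly divided, with 32 higher in *quad* (0.14%) and 205 lower in *quad* (0.899%). No gene was beyond the log2 limit without an adjusted p under 0.05, and 138 further genes with such a p lay just inside the limit, beyond 1.2. By adjusted p alone 13.1% passed, of which 1169 genes were higher (5.12%) and 1822 lower (7.99%). With the signals as corrected by the scanner software 1054 genes were called, 333 higher and 721 lower. Every called gene had the same sign on both arrays. The arrays differed by a median of 0.26 for the genes called higher and of 0.34 for the genes called lower. Because the rule selects large ratios, values of *quad* and WT that lie apart in a called gene largely follow from the call. They are given as a description and not as separate evidence.

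**Figure D1:**
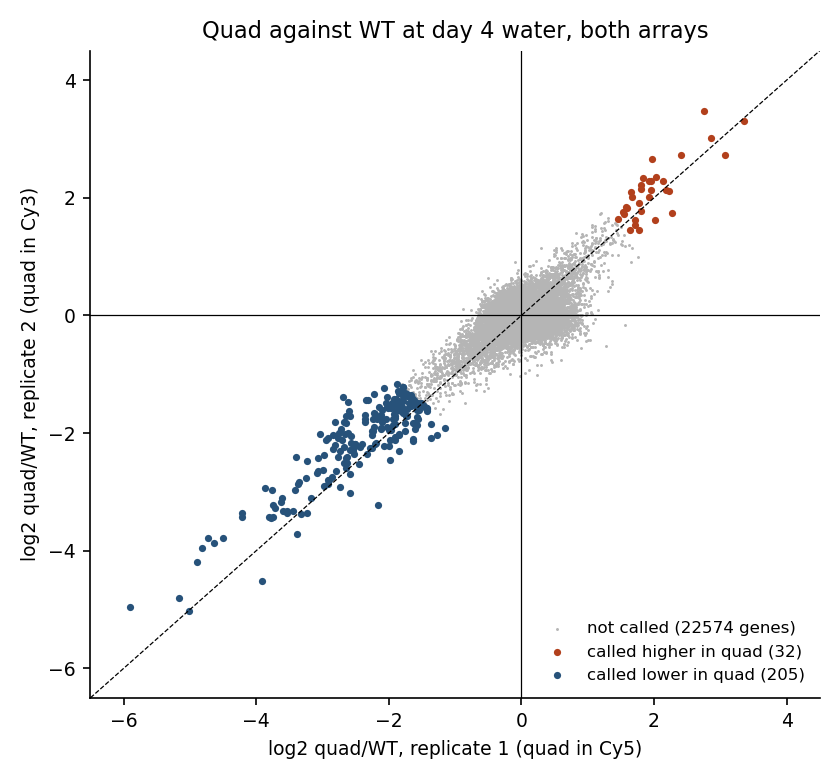
Log2 *quad*/WT ratio of each of the 22811 genes on replicate 1 (x axis, *quad* in Cy5) against replicate 2 (y axis, *quad* in Cy3); grey points are genes not called, red points the 32 called higher and blue points the 205 called lower in *quad*. The lowest blue point, AT3G07850, had a mean of -5.43 and the highest red point, SAG12, a mean of 3.33.

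The sizes were unequal as well. Of the genes called lower, 109 were over 4-fold lower and 32 over 8-fold lower. Of the genes called higher, 16 were over 4-fold higher and 2 over 8-fold higher. For 77 of the 205 genes called lower the *quad* RNA was not well above background on either array, whereas WT RNA was well above it on both. No gene called higher was below background on both WT arrays. For a gene that was dim in *quad* only a lower bound of the difference is given, for which the *quad* level was raised, where it lay below it, to the dimmest signal that counted as well above background on that array.

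**Figure D2:**
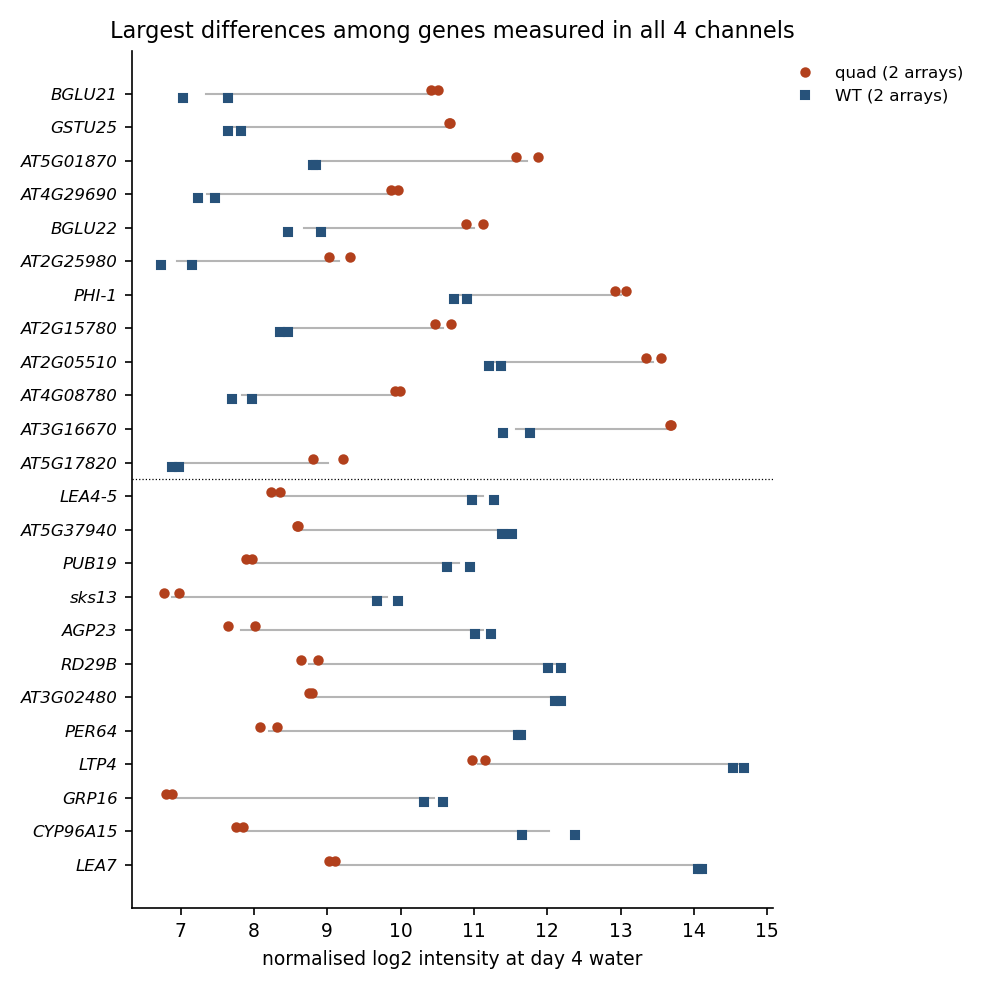
Normalised log2 intensity (x axis) of the 12 genes with the largest rise and the 12 with the largest fall in *quad* among called genes well above background in all 4 channels; circles are the 2 *quad* measurements and squares the 2 WT measurements, to be compared within a gene. The *quad* and WT points of a gene overlap for none of the 24 genes, which largely follows from their choice by ratio. *LEA7* shows the widest gap, with a log2 ratio of -5.02.

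Genes of pollen and of the tapetum, the anther tissue that nourishes pollen and supplies its coat, were examined next. Of 15 pollen genes tested, 7 were called lower and none higher, and of 12 tapetum and pollen coat genes 5 were called lower and none higher. The median log2 ratios of these lists were -1.5 and -1.43, beside -0.01 for all genes tested. All 15 and all 12 members were below 0, beside 11941 of all 22811 genes tested, with 10870 above 0. The same background applies to the members above or below 0 in the lists that follow. With the regulators of flower development described below, these lists held 14 of the 205 genes called lower. By adjusted p alone 14 of the 15 and 9 of the 12 were lower. The pollen list had 17 entries, 2 of which were not tested. In whole plants, fewer cells of a type and less RNA per cell cannot be told apart.

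Among the pollen genes, VGD1 (AT2G47040), a pectin methylesterase needed for pollen tube growth, had log2 intensities of 6.04 and 6.50 in *quad*, against 10.67 and 10.36 in WT. It was not well above background in *quad* and was at least 18.9-fold lower there (limma adjusted p 4.42e-07). PPME1 (AT1G69940), another pollen pectin methylesterase, measured 5.96 and 6.39 in *quad*, against 8.56 and 8.02 in WT, at least 4.19-fold lower (limma adjusted p 1.07e-05). Both WT values lay far above both *quad* values for each enzyme, which largely follows from the call. AGP11 and AGP6, arabinogalactan proteins of the pollen wall, had log2 ratios of -2.59 and -2.17 (SE 0.174 and 0.168, limma adjusted p 1.26e-06 and 3.56e-06). Each was well above background on only 1 of the 2 *quad* arrays. The other called members were STP11 (-1.73), a sugar transporter of pollen tubes, the pollen profilin PRF5 (-1.65) and the calcium-dependent kinase CPK17 (-1.57). The 2 other measured probes of CPK17 read -1.13 and -0.41, short of the log2 limit. The kinase CPK34 was the member nearest to 0, at -0.10.

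In the tapetum list the glycine-rich oleosins of the pollen coat carried the difference. GRP16 (AT5G07540) stood at 6.80 and 6.89 in *quad*, against 10.58 and 10.32 in WT, a log2 ratio of -3.61 (SE 0.313, limma adjusted p 8.95e-06). Another probe of GRP16 read -0.28, and the mean of its probes gave -1.95. GRP17 (AT5G07530), which is needed for pollen hydration on the stigma, stood at 9.94 and 9.43 in *quad*, against 12.10 and 12.66 in WT, with a ratio of -2.70 (SE 0.322, limma adjusted p 0.000125). GRP19 and GRP20 followed with -2.59 and -2.11. These 4 genes lie close together on chromosome 5, and cross-hybridisation between their probes was not tested. The extracellular lipase EXL6 (AT1G75930) was at the limit, with -1.51. The regulator MYB80 and the genes A9 and ATA1 had ratios of -0.49, -0.34 and -0.30, and were the only members that did not pass the adjusted p.

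Regulators of flower development showed a graded picture. Of 22 such genes 2 were called lower and none higher, with a median of -0.44, and 12 were lower by adjusted p alone. The called genes were MYB21 and MYB24, transcription factors that act downstream of jasmonate in stamen filament growth and anther opening. MYB21 (AT3G27810) had 6.07 and 6.42 in *quad*, against 9.88 and 9.83 in WT, and was at least 12.2-fold lower (limma adjusted p 2.99e-06). MYB24 (AT5G40350) had 5.96 and 6.24 in *quad*, against 8.21 and 8.20 in WT, and was at least 4.05-fold lower (limma adjusted p 4.8e-06). The ovule gene STK and the petal and stamen identity genes PI and AP3 had ratios of -1.26, -0.94 and -0.80, past the adjusted p but not the log2 limit. LFY and UFO, which act at the start of flower formation, stood at 0.03 and 0.12, and AP1 at -0.34, none of them past the adjusted p. Of the 22 genes, 15 and 14 were well above background on the *quad* arrays and 21 and 21 on the WT arrays.

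**Figure D3:**
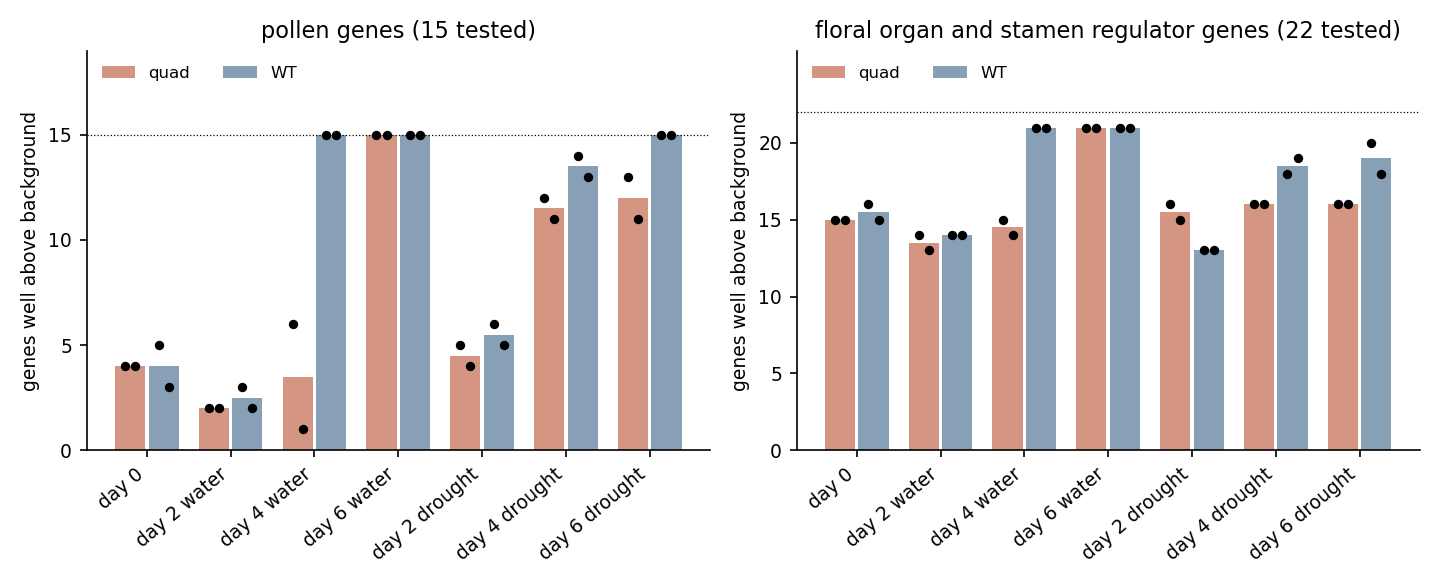
Number of pollen genes (left, 15 tested) and of floral organ and stamen regulator genes (right, 22 tested) well above background in *quad* (red) and WT (blue) in each condition; points are the 2 arrays, bars their mean, and the dotted line the number tested. At day 4 water the *quad* arrays detected 6 and 1 of the 15 pollen genes and the WT arrays 15 and 15. Genes were tested only if well above background on both arrays of 1 genotype in some condition, so full counts follow in part from that filter.

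The pollen genes can be followed over the course, on arrays that share no RNA. At day 0, 4 and 4 of the 15 were well above background in *quad* and 5 and 3 in WT. At day 2 water the numbers were 2 and 2 in *quad* and 3 and 2 in WT. At day 4 water 6 and 1 were detected in *quad* and all 15 in WT on both arrays. At day 6 water all 15 were detected in both genotypes on both arrays. A gene was tested only if well above background on both arrays of 1 genotype in some condition. Counts of all 15 therefore follow in part from this filter. The drought samples of day 4 lay between, with 12 and 11 detected in *quad* and 14 and 13 in WT. The median ratio of the list was -0.03 at day 0, 0.01 at day 2 water, -1.5 at day 4 water, -0.06 at day 6 water and -0.18 at day 4 drought. Day 4 water was thus the condition in which the genotypes lay furthest apart in these genes. GRP17 rested at similar levels in both genotypes at day 2 water, with 9.03 and 9.0 in *quad* and 9.15 and 8.79 in WT. At day 6 water GRP17 had 12.02 and 12.19 in *quad* and 12.86 and 11.24 in WT. There the WT arrays disagreed and lay on either side of the *quad* values.

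Outside the lists, the largest falls bounded by background were those of AT3G07850 and AT3G14040. AT3G07850 had 5.92 and 6.47 in *quad*, against 11.82 and 11.43 in WT, at least 41.3-fold lower (limma adjusted p 2.52e-08), and AT3G14040 was at least 23.2-fold lower. AT3G01270, the polygalacturonase PGA4 (AT1G02790) and the mini zinc finger MIF2 (AT3G28917) followed with at least 17.9-fold, 13.2-fold and 12.8-fold. For each of these 5 genes both WT values lay above both *quad* values, which largely follows from their choice. AGP23 (AT3G57690), an arabinogalactan peptide, measured 8.01 and 7.65 in *quad*, against 11.23 and 11.02 in WT. *sks13* (AT3G13400), of the multicopper oxidase-like SKU5 family, measured 6.98 and 6.78 in *quad*, against 9.96 and 9.68 in WT. The log2 ratios of these genes were -3.29 and -2.94 (SE 0.141 and 0.166, limma adjusted p 3.79e-08 and 3.55e-07).

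Genes of the dehydration and abscisic acid (ABA) response were the other large group. ABA is the hormone that accumulates under water deficit, and many of these genes encode hydrophilic late embryogenesis abundant (LEA) proteins, dehydrins and lipid transfer proteins. Although both genotypes had been watered, 9 of 31 members were called lower in *quad* and none higher. The median ratio was -0.67, with 29 members below 0 and 2 above it, and by adjusted p alone 20 were lower and 2 higher. LEA7 (AT1G52690) had 9.10 and 9.03 in *quad*, against 14.11 and 14.06 in WT, the widest gap among genes measured in all channels. Its log2 ratio was -5.02 (SE 0.0994, limma adjusted p 8.16e-11), a 32.5-fold difference. LTP4 (AT5G59310), a lipid transfer protein, had 11.15 and 10.97 in *quad*, against 14.53 and 14.68 in WT, a ratio of -3.55 (SE 0.152, limma adjusted p 3.79e-08). RD29B (AT5G52300), a widely used reporter of ABA response, had 8.87 and 8.64 in *quad*, against 12.19 and 12.01 in WT, a ratio of -3.35 (SE 0.146, limma adjusted p 4.21e-08). The groups stood apart in each of these genes, which largely follows from their choice by ratio.

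LEA4-5 (AT5G06760), another LEA gene, was at 8.24 and 8.36 in *quad* and at 10.98 and 11.27 in WT (ratio -2.82, SE 0.165, limma adjusted p 4.42e-07). The remaining called members were LTP3 (-2.20), the dehydrin XERO2 (-1.88), RD29A (-1.68), the calcium-binding RD20 (-1.60) and the transcription factor NAC019 (-1.5). LTP3 and LTP4 are neighbouring genes on chromosome 5, as are RD29A and RD29B, and cross-hybridisation between their probes was not tested. RAB18 and KIN1 passed the adjusted p with -1.18 and -1.0. The classical markers DREB2A, P5CS1 and RD26, at -0.14, -0.25 and -0.31, did not. NAC3, an ABA-induced NAC factor, went the other way with 1.33. Among 17 genes of ABA metabolism and of the phosphatases that restrain ABA signalling, only the phosphatase HAI1 (AT5G59220) was called, with 7.12 and 7.21 in *quad*, against 8.95 and 8.75 in WT (ratio -1.69, SE 0.103, limma adjusted p 6.27e-07). NCED3 and NCED5, of the enzyme that limits ABA synthesis, had ratios of -0.59 and -0.66 and passed the adjusted p alone. The list median was -0.36.

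Outside the lists, AT3G02480 had 8.75 and 8.79 in *quad*, against 12.19 and 12.10 in WT, a ratio of -3.38 (SE 0.156, limma adjusted p 5.67e-08). PUB19 (AT1G60190), a ubiquitin ligase, had 7.89 and 7.98 in *quad* and 10.95 and 10.63 in WT. AT5G37940 had 8.60 and 8.59 in *quad* and 11.52 and 11.38 in WT. Both of them had a log2 ratio of -2.86 (SE 0.148 and 0.103, limma adjusted p 1.67e-07 and 2.52e-08). The gap between *quad* and WT values largely follows from the choice of these genes by ratio.

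The jasmonate list moved one way as a whole, although most of its members moved little. Jasmonates are lipid-derived hormones of wounding, defence and stamen maturation. All 30 genes tested had a ratio below 0, beside 11941 of all 22811 genes, with a median of -0.62. Of these, 6 were called lower, none was called higher, and 20 were lower by adjusted p alone. LOX3 (AT1G17420), a lipoxygenase at the entry of jasmonate synthesis, had 10.03 and 9.94 in *quad*, against 12.36 and 12.30 in WT, a ratio of -2.34 (SE 0.13, limma adjusted p 3.04e-07). AOC1 (AT3G25760), an allene oxide cyclase of the same pathway, had 8.10 and 8.14 in *quad*, against 10.18 and 10.36 in WT, a ratio of -2.15 (SE 0.184, limma adjusted p 7.99e-06). CYP94B3 (AT3G48520), which oxidises the active jasmonate, had 6.26 and 6.55 in *quad*, against 8.66 and 8.73 in WT, a ratio of -2.29 (SE 0.273, limma adjusted p 0.000121), and was well above background on 1 of the 2 *quad* arrays. Synthesis and turnover genes were thus both among the called members. The beta-amylase BAM5, the storage protein VSP1 and the aminotransferase TAT3, which jasmonate induces, had -1.72, -1.66 and -1.58. Of the JAZ repressors, JAZ1 and JAZ5 passed the adjusted p with -0.89 and -0.82, whereas JAZ7, JAZ8 and JAZ2 did not, at -0.28, -0.26 and -0.23.

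In the wax and cutin list, 2 of 24 genes were called lower and none higher, with a median of -0.37. CYP96A15 (AT1G57750), the midchain alkane hydroxylase that makes the secondary alcohols and ketones of stem wax, had 7.75 and 7.85 in *quad*, against 11.66 and 12.38 in WT, a ratio of -4.22 (SE 0.21, limma adjusted p 1.17e-07). CER4 (AT4G33790), the reductase that makes its primary alcohols, had 8.34 and 8.52 in *quad*, against 10.97 and 10.92 in WT, a ratio of -2.52 (SE 0.112, limma adjusted p 4.35e-08). CER1, KCS2 and CER3, which elongate acyl chains or form alkanes, passed the adjusted p with -0.92, -0.87 and -0.67. Among 14 Casparian strip and suberin genes only the peroxidase PER64 (AT5G42180) was called. It stood at 8.08 and 8.32 in *quad*, against 11.60 and 11.64 in WT, a ratio of -3.42 (SE 0.371, limma adjusted p 5.71e-05). The list was divided in direction, with 10 members above 0 and 4 below it, PER64 among the latter. By adjusted p alone 4 members were higher and 2 lower. CASP1 and MYB36, which build or control the strip in roots, had 1.12 and 0.87 and passed the adjusted p, and the list median was 0.16.

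None of 18 flavonoid genes was called, but 16 had a ratio below 0, the median was -0.39 and 7 were lower by adjusted p alone. Chalcone synthase TT4 (AT5G13930), the first enzyme of the pathway, had 11.83 and 12.09 in *quad*, against 13.17 and 13.10 in WT (ratio -1.18, SE 0.198, limma adjusted p 0.00168). None of 15 aliphatic glucosinolate genes was called either, with 14 below 0, a median of -0.46 and 7 lower by adjusted p alone. The regulator MYB29 stood at -0.86. MAM1, an enzyme of methionine chain elongation, was at 13.38 and 13.18 in *quad* and at 13.90 and 14.34 in WT, and its ratio on the single arrays was -0.53 and -1.16.

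Root genes were next among the lists. Of 21 genes of root cells and of ER bodies, which are endoplasmic reticulum compartments filled with beta-glucosidase, 2 were called higher and none lower. The median was 0.59, 20 of 21 members had a ratio above 0, and 14 were higher by adjusted p alone, against 5.12% of all genes. BGLU21 (AT1G66270) had 10.41 and 10.51 in *quad*, against 7.65 and 7.04 in WT, a ratio of 3.11 (SE 0.158, limma adjusted p 1.33e-07). Its neighbour on chromosome 1, BGLU22 (AT1G66280), had 10.89 and 11.12 in *quad*, against 8.92 and 8.46 in WT, a ratio of 2.32 (SE 0.16, limma adjusted p 1.44e-06). These beta-glucosidases are close relatives, so signal shared between their probes was not separated. The vacuolar aquaporin TIP2;3 and the root stem cell regulator WOX5 passed the adjusted p with 1.15 and 1.03. PYK10, the main ER body enzyme, did so with 0.76 and the root hair expansin EXPA7 with 0.90. On the *quad* arrays 21 and 20 of the 21 genes were well above background, and on the WT arrays 16 and 14. The part of a different root share in these values was not tested.

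Of 21 iron deficiency genes 2 were called higher and none lower, with a median of 0.55, and 12 were higher by adjusted p alone. F6'H1 (AT3G13610), which makes the coumarins that mobilise iron outside the root, had 9.71 and 9.68 in *quad*, against 7.77 and 7.55 in WT, a ratio of 2.04 (SE 0.186, limma adjusted p 1.31e-05). ABCG37 (AT3G53480), a transporter that exports them, had 8.78 and 8.91 in *quad*, against 7.25 and 7.15 in WT, a ratio of 1.64 (SE 0.178, limma adjusted p 5.58e-05). The transcription factor genes BHLH100, BHLH101, BHLH39 and BHLH38 lay between 1.12 and 1.41, and the iron transporter IRT1 at 1.33. These passed the adjusted p but not the log2 limit. The ferric reductase FRO2 was at 0.49. All 4 ferritin genes, whose products store iron, were lower by adjusted p alone, with ratios between -1.30 and -0.42 and a median of -0.67. FER1 (AT5G01600) had 10.66 and 10.80 in *quad*, against 12.18 and 11.88 in WT.

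Plant defensins were called as well. PDF1.2 (AT5G44420), an antifungal peptide induced by jasmonate with ethylene, had 10.64 and 10.28 in *quad*, against 8.37 and 8.53 in WT, a ratio of 2.01 (SE 0.217, limma adjusted p 5.66e-05). PDF1.2c and PDF1.2b had 1.82 and 1.62 (SE 0.3 and 0.145, limma adjusted p 0.00144 and 1.15e-05). They were the 3 called genes of 9 in the list, whose median was 0.39, and they are near-identical in sequence, with cross-hybridisation not tested. Without replicate 1, PDF1.2c had 1.63 (limma adjusted p 0.0659) and PDF1.2b had 1.45, and neither was called. The ethylene response factors ORA59 and ERF1 stood at 0.33 and 0.29 and did not pass the adjusted p.

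The largest rise of all was that of SAG12 (AT5G45890), a cysteine protease used as a marker of leaf senescence. It measured 9.80 and 9.64 in *quad*, against 6.43 and 6.34 in WT, where 1 of the 2 arrays was well above background, and its ratio was 3.33 (SE 0.133, limma adjusted p 2.52e-08). The other senescence genes did not follow it. SAG29 (AT5G13170), which encodes a sugar transporter, had 7.77 and 7.60 in *quad*, against 10.35 and 10.61 in WT (ratio -2.79, SE 0.353, limma adjusted p 0.000192), and SAG13 had -1.54. SAG13 lost its call under 5 alternatives, among them without either replicate. NAP, WRKY53 and NYE1, a regulator pair and a chlorophyll breakdown gene, lay at 0.22, 0.30 and -0.25 and did not pass the adjusted p. The list median over 13 genes was 0.09.

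Further rises were those of GSTU25 (AT1G17180), a glutathione transferase, with 10.68 and 10.66 in *quad*, against 7.82 and 7.65 in WT (ratio 2.93, SE 0.197, limma adjusted p 1.26e-06), and of AT5G01870, with 11.88 and 11.58 in *quad*, against 8.81 and 8.85 in WT (ratio 2.90, SE 0.139, limma adjusted p 8.67e-08). GSTU25 was the only called gene of 30 glutathione transferases, whose median was 0.15. AT4G29690 and AT2G25980 had ratios of 2.56 and 2.21. AT2G15780, AT2G05510, AT4G08780, AT3G16670 and AT5G17820 lay between 2.08 and 2.17. In all these genes both *quad* values exceeded both WT values, which largely follows from their choice by ratio.

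The BR pathway itself was read from separate lists. No gene of BR synthesis was called, but 4 of 9 were higher by adjusted p alone. DWF4 (AT3G50660), a C-22 hydroxylase that limits BR synthesis, had 12.17 and 12.17 in *quad*, against 11.04 and 10.90 in WT (ratio 1.2, SE 0.104, limma adjusted p 9.06e-06), and BR6OX2 (AT3G30180), which catalyses the last step, had 12.37 and 12.33 in *quad*, against 11.32 and 11.21 in WT (ratio 1.08, SE 0.152, limma adjusted p 0.000429). CYP90D1 and CPD had 0.49 and 0.48. The steps further up, DET2, DWF1 and DWF5, were between -0.13 and -0.07 and did not pass. Receptor relatives that *quad* retains, BRL2, SERK1, SERK2 and SERK4, lay between -0.17 and 0.21.

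Among 28 growth genes that respond to BR or auxin, 2 were called higher and none lower, and by adjusted p alone 9 were higher and 10 lower, with a median of -0.13. PHI-1 (AT1G35140), of the EXORDIUM family, had 12.93 and 13.08 in *quad*, against 10.90 and 10.73 in WT (ratio 2.19, SE 0.165, limma adjusted p 2.94e-06), whereas its relatives EXL2, EXL3 and EXL4 lay between -0.09 and 0.13 and did not pass the adjusted p. XTH22, a cell wall transglycosylase, had 1.55 and EXO had 1.35. The auxin-conjugating enzymes GH3.1, GH3.2, GH3.5 and GH3.6 ranged between 0.62 and 0.85. The SAUR genes SAUR15, SAUR19, SAUR20, SAUR21, SAUR22, SAUR23 and SAUR24, which promote cell expansion, ranged between -0.98 and -0.68, and the expansin EXPA8 and the helix-loop-helix gene PRE1 stood at -1.07 and -0.94. All of these passed the adjusted p, and several SAUR genes are near-identical copies. Without replicate 1 XTH22 had 1.46 and was no longer called.

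Several lists showed no called gene. Of 24 photosynthesis genes none was called or passed the adjusted p, and the median was 0.01, with members between -0.32 and 0.38. RBCS1B, the member furthest from 0, had opposite signs on the arrays, 1.27 and -0.52. Of 14 mitotic genes, 19 flowering time genes, 18 clock genes, 20 salicylate and defence genes and 12 indole glucosinolate and camalexin genes none was called, with medians of 0.01, 0.05, -0.09, 0.10 and -0.01. By adjusted p alone 1, 3, 1, 8 and 1 of them passed. The 8 salicylate and defence genes were 4 higher and 4 lower. The flowering time genes TFL1 and TEM1 had -0.49 and 0.47. The defence genes LURP1 and WRKY38 had 0.92 and 0.86. Gibberellin enzymes, type-A response regulators, heat shock genes, phosphate starvation genes, seed genes and BR inactivation genes also held no called member. Of 10 heat shock genes 4 were higher and 1 lower by adjusted p alone, and of 14 phosphate starvation genes 1 was higher and 4 lower. Of 11 gibberellin enzymes 2 were higher and 3 lower, and of 8 response regulators 2 higher and 1 lower. Of 7 seed genes 1 was lower, and of 4 BR inactivation genes 1 was higher and 1 lower. GA2OX6 and GA2OX1, which inactivate gibberellin, stood at -1.01 and -0.81, ARR3 and ARR16 at 0.92 and -0.88, HSFA2 at 1.33 and HSP18.2 at -0.79. The ribonuclease RNS1, at -1.5, lay just inside the limit. The seed gene EM6, not well above background in *quad*, was at least 1.9-fold lower there (limma adjusted p 6.53e-05). The phosphate transporter PHT1;1 had 1.14, the LEA gene M17 0.79, CYCB2;4 0.32 and CCA1 -0.50.

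**Figure D4:**
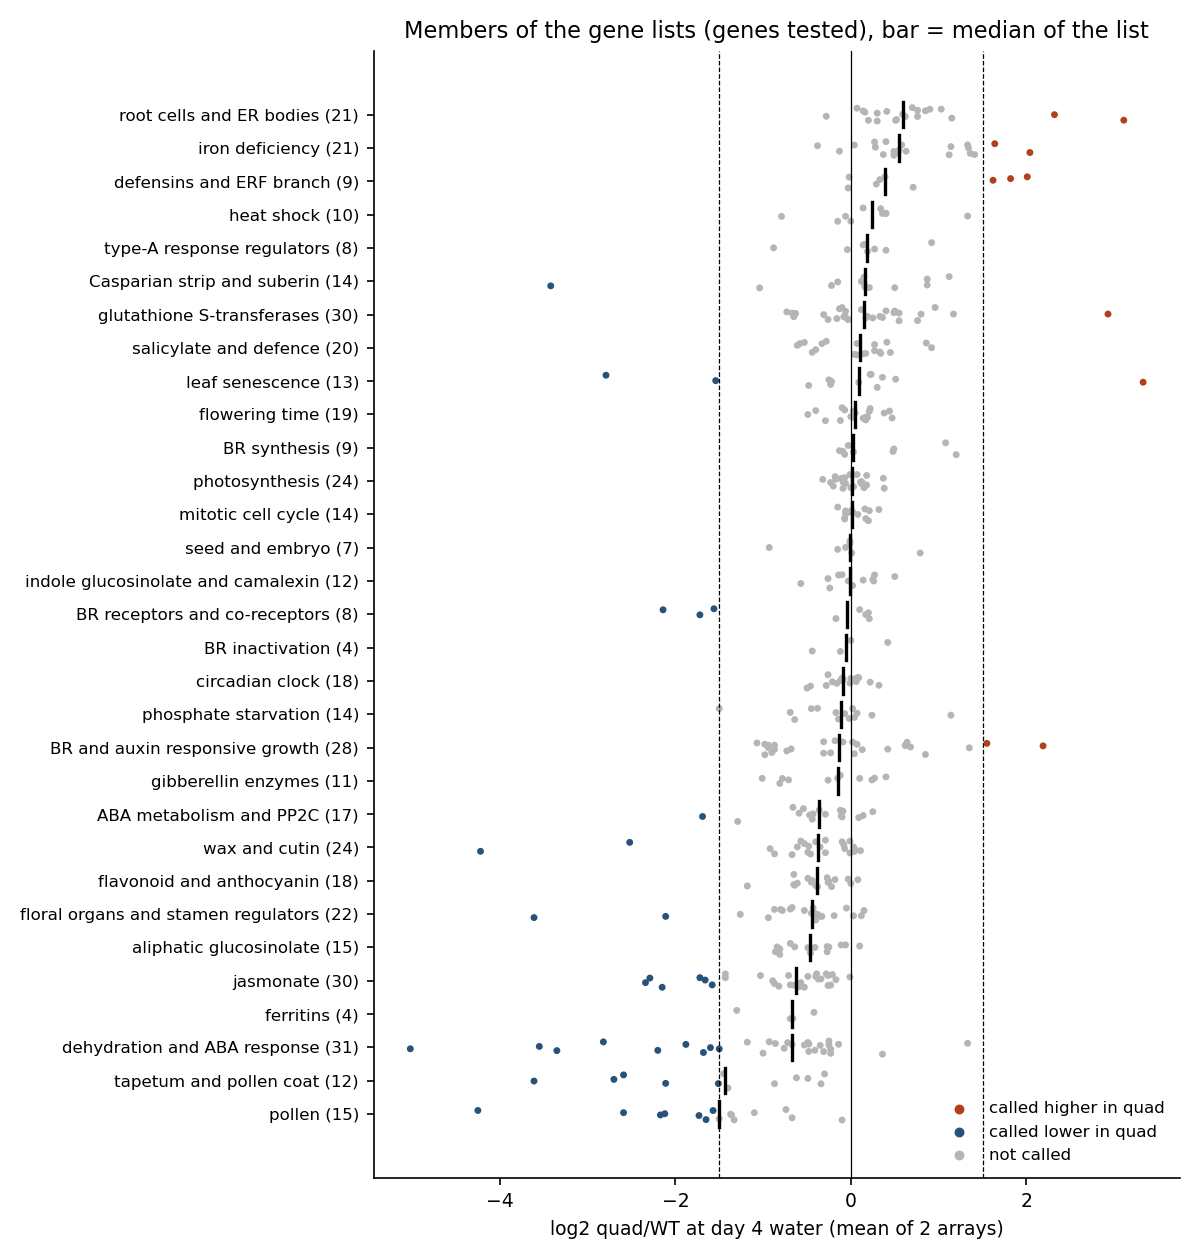
Log2 *quad*/WT ratio at day 4 water (x axis, mean of 2 arrays) of every tested member of the 31 gene lists (rows, number tested in brackets); red points were called higher, blue points called lower and grey points not called, black bars are list medians and dashed lines the log2 limit of 1.5. The pollen and the tapetum list have medians of -1.5 and -1.43, and the root list lies at the upper end with 0.59.

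To ask which of these differences were particular to day 4 water, its ratio was compared with that of day 4 drought, day 2 water and day 6 water in the same limma fit. These tests share the 2 arrays of day 4 water, so they are not independent of one another. The genes called at day 4 water were first followed on the other arrays, which entered the calls through the detection filter and the shared spread but not through the ratio. The 205 genes called lower had a median ratio of -2.05 at day 4 water, of -0.04 at day 0, 0.02 at day 2 water and -0.28 at day 6 water. In the drought samples it was -0.09 at day 2, -0.36 at day 4 and -0.76 at day 6. The 32 genes called higher had a median of 1.99 at day 4 water, 2.17 at day 2 water and 1.67 at day 6 water. It was 0.15 at day 0, -1.24 at day 2 drought, 0.22 at day 4 drought and 1.28 at day 6 drought. Of the 205 genes called lower, 137 were called in no other condition and 61 were called lower elsewhere. The latter held 32 at day 6 drought, 25 at day 0 and 22 at day 2 drought. Another condition called 15 of the 205 higher. All 32 genes called higher were also called higher elsewhere, 22 of them at day 2 water, and 13 were called lower elsewhere. Differences from day 0, day 2 drought and day 6 drought were not tested.

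In level, the median of the 205 genes in *quad* was 6.43 at day 2 water, 6.41 at day 4 water and 8.61 at day 6 water. In WT it was 6.39 at day 2 water, 8.88 at day 4 water and 8.93 at day 6 water. The numbers of these genes well above background on both arrays were 82, 96 and 202 in *quad* and 77, 205 and 204 in WT at those times. The gap in level and in detection at day 4 water largely follows from the choice of the genes by their ratio there. Genes dim at other times passed the detection filter only through samples in which they were bright. Levels between arrays rest on quantile-matched average intensities and were not tested.

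Against day 4 drought, the same day without watering, the ratio differed for 179 genes (0.785% of those tested), being higher at day 4 water for 37 (0.162%) and lower for 142 (0.623%). In the pollen list 6 of 15 genes were called lower in this difference, in the tapetum list 5 of 12 and in the dehydration list 4 of 31, and none of these lists had a member called higher. LEA7 had a ratio of -5.02 at day 4 water, against -1.07 at day 4 drought, a difference of -3.95. In *quad* it measured 9.10 and 9.03 with water and 13.45 and 13.44 without, and in WT 14.11 and 14.06 with water and 14.56 and 14.48 without. The WT level thus lay close to that of the drought samples while the *quad* level did not. GRP16 and AGP23 differed by -3.94 and -3.43, the GRP16 value being -2.1 with the mean of its probes. At day 4 drought GRP16 stood at 10.23 and 10.34 in *quad*, against 9.92 and 9.98 in WT, and AGP23 at 9.85 and 10.55 in *quad*, against 9.91 and 10.21 in WT. PR5, a salicylate-induced defence protein, differed by -2.90, and with median centring of the arrays in place of loess by -3.02, which was not called (limma adjusted p 0.242). PR5 did not differ between the genotypes at day 4 water beyond its error (-0.28, SE 0.366, limma adjusted p 0.706), and at day 4 drought it was at 14.03 and 14.03 in *quad*, against 11.26 and 11.56 in WT.

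The defensins and BGLU21 lay on the other side. PDF1.2 differed by 4.09, PDF1.2c by 3.86, BGLU21 by 3.45 and PDF1.2b by 3.41. PDF1.2 was higher in *quad* at day 4 water, but at day 4 drought it stood at 10.38 and 9.81 in *quad*, against 12.03 and 12.32 in WT. The *quad* values of the 2 conditions lay near each other, and it was the WT values that were apart. BGLU21 had 8.95 and 8.97 in *quad*, against 9.29 and 9.29 in WT at day 4 drought. The limma adjusted p of these 8 differences lay between 7.15e-08 and 0.00625. On replicate 1 of day 4 drought 24 spots had a strongly raised local background, and with such spots masked 192 genes were called, 153 of the 179 among them.

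**Figure D5:**
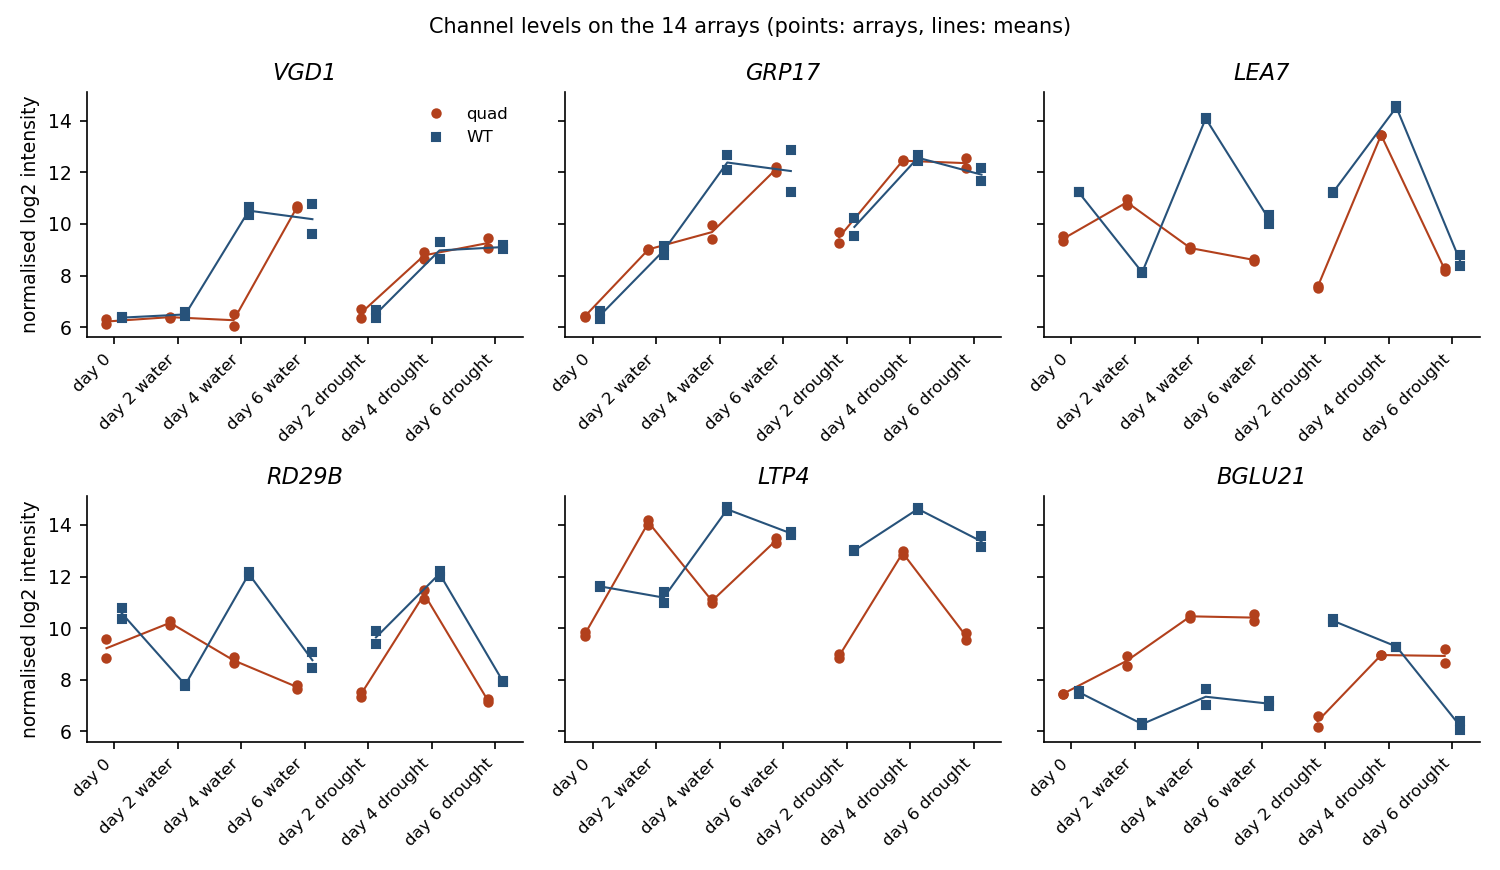
Normalised log2 intensity (y axis) of 6 genes in *quad* (red circles) and WT (blue squares) in each condition; points are the 2 arrays and lines join the means of the watered and, separately, of the drought samples. At day 4 water *VGD1*, *GRP17*, *LEA7*, *RD29B* and *LTP4* are lower and *BGLU21* higher in *quad*. At day 6 water *VGD1* reaches similar levels in both genotypes, and the WT values of *GRP17* lie on either side of its *quad* values.

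Against day 2 water, 532 genes differed (2.33%), 14 being higher (0.0614%) and 518 lower (2.27%) at day 4 water. Of the dehydration genes 13 of 31 were called lower in this difference, of the jasmonate genes 11 of 30, of the defensin list 8 of 9, of the salicylate and defence genes 11 of 20, of the pollen genes 6 of 15, and none of these lists had a member called higher. The dehydration and jasmonate lists had medians of 0.43 and 0.36 at day 2 water, the only condition in which either was above 0. At day 0 they were -1.1 and -1.82, lower than -0.67 and -0.62 at day 4 water. At day 6 water they were -0.71 and -0.13. Both were also below 0 in every drought condition. The defensin and salicylate lists had their highest medians at day 2 water, 2.57 and 1.61. Between days 2 and 4 with water the sign itself turned for some genes. LEA7 had 10.73 and 10.95 in *quad*, against 8.14 and 8.11 in WT at day 2 water, so that its ratio at day 4 water was lower by 7.74 on the log2 scale. LTP4, RD29B and the glucose-6-phosphate translocator GPT2 were likewise higher in *quad* at day 2 water and lower at day 4 water, with differences of -6.47, -5.74 and -5.14. GPT2 (AT1G61800) had 7.73 and 7.96 in *quad*, against 10.47 and 10.27 in WT at day 4 water, and 9.31 and 9.22 in *quad*, against 6.67 and 6.63 in WT at day 2 water. The largest differences upwards were those of AT4G20820 (2.46), AT3G05727 (2.09), PHI-1 (1.99) and the sulfotransferase ST4B (1.98). AT4G20820 did not differ at day 4 water (0.02), whereas at day 2 water it was at 8.52 and 8.44 in *quad*, against 10.94 and 10.89 in WT. With median centring AT3G05727 lost its call (limma adjusted p 0.0689). The limma adjusted p of these 8 differences lay between 2.99e-11 and 0.000585.

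Against day 6 water, 180 genes differed (0.789%), 31 being higher (0.136%) and 149 lower (0.653%) at day 4 water. Of the pollen genes 6 of 15, of the dehydration genes 4 of 31, of the tapetum genes 3 of 12, of the jasmonate genes 3 of 30 and of the wax genes 2 of 24 were called lower. Of the jasmonate genes 1, of 9 genes of the defensin list 3 and of 10 heat shock genes 3 were called higher. CYP96A15 was lower in *quad* by 4.22 at day 4 water, but at day 6 water it had 11.62 and 11.54 in *quad*, against 11.76 and 11.5 in WT, a difference between days of -4.16. PER64 had 11.51 and 11.30 in *quad*, against 11.42 and 11.40 in WT at day 6 water, and differed by -3.42. The plasma membrane proton pump HA9 (AT1G80660) had 6.36 and 6.66 in *quad*, against 9.08 and 8.59 in WT at day 4 water, and 9.77 and 10.04 in *quad*, against 8.63 and 8.94 in WT at day 6 water, a difference of -3.45. LEA7 differed by -3.46. For CYP96A15 and PER64 the *quad* level at day 6 water had thus come to that of WT, and for HA9 it had passed it. In the other direction AT1G14250 differed by 3.74, PDF1.2 by 3.33, PDF1.2c by 3.25 and PHI-1 by 2.75. PHI-1 stood at 12.99 and 13.14 in *quad*, against 13.73 and 13.51 in WT at day 6 water, whereas WT was at 10.90 and 10.73 at day 4 water. The limma adjusted p of these 8 differences lay between 1.03e-08 and 0.002.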

How the data were processed

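RNA of *quad* and WT plants was hybridised together to 14 two-colour arrays, 2 with exchanged dyes for each of 7 conditions. The authors' deposited scanner files, made with Feature Extraction 10.5.1.1 per the file headers, hold raw median spot and background intensities of Cy5 and Cy3, processed intensities and a log10 ratio of Cy5 over Cy3. The authors also deposited a table of normalised log2 ratios, which served as an alternative. The genome build behind the array design is not given in the sources used here.

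Median intensities were corrected by normexp (mle, offset 50) and normalised by loess within and Aquantile between arrays (limma 3.58.1, R 4.3.3), after which swapped arrays were turned so that every ratio is *quad* over WT. Control spots and outlier flags were left out, and 1 gene had no ratio on replicate 2 of day 4 water. The brightest of several probes stood for a locus. A gene was tested if well above background on both arrays of 1 genotype in at least 1 condition, which kept 22811 of 28327 loci. lmFit and eBayes were run on all 14 arrays with 7 coefficients (7 residual and 4.81 prior degrees of freedom), with Benjamini-Hochberg adjustment over all genes. Such p-values measure the spread between these arrays. Of the loci 27785 were matched to the RefSeq gene table (TAIR10.1), which gave symbols and gene order.

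The 31 gene lists and the members named were chosen with earlier results of these data known, and no test was made of a list. Named were the mutated genes, the 12 largest rises and falls measured in all channels, the 6 largest falls by bound, up to 4 called members of each list or, where none was called, up to 2 that were furthest from 0, and 4 genes per direction of each difference between conditions. Other list members are given as examples of their list. The script was tested on simulated data, and the alternatives covered signal, offset, normalisation, filter, probe choice, scan run, replicate block and each replicate left out.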

Additional observations from a re-analysis of the deposited data

Results flagged for a closer look

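The ratio of *quad* to WT at day 4 water was set apart from that of other conditions by limma tests of the difference itself, and the results that passed are gathered here. They concerned 179 genes against day 4 drought, 532 against day 2 water and 180 against day 6 water. Against day 4 drought the named differences were 4.09 for PDF1.2, 3.86 for PDF1.2c, 3.45 for BGLU21 and 3.41 for PDF1.2b. On the negative side they were -2.90 for PR5, -3.43 for AGP23, -3.94 for GRP16 and -3.95 for LEA7. With the mean of all probes of a locus GRP16 differed by -2.1, and with median centring in place of loess PR5 differed by -3.02 and lost its call (limma adjusted p 0.242).

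Against day 2 water AT4G20820 differed by 2.46, AT3G05727 by 2.09, PHI-1 by 1.99 and ST4B by 1.98, whereas GPT2 differed by -5.14, RD29B by -5.74, LTP4 by -6.47 and LEA7 by -7.74. Against day 6 water AT1G14250 differed by 3.74, PDF1.2 by 3.33, PDF1.2c by 3.25 and PHI-1 by 2.75, and on the negative side PER64 differed by -3.42, HA9 by -3.45, LEA7 by -3.46 and CYP96A15 by -4.16. LEA7 was among the 4 lowest genes named against each of the 3 conditions, and other named genes such as RD29B, AGP23 and GRP16 were also called lower in all 3. All 24 values share the arrays of day 4 water.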

How the results depend on the processing

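With main counts of 237 genes at day 4 water and of 179, 532 and 180 in the differences from day 4 drought, day 2 water and day 6 water, the adjusted p alone gave 2991, 945, 3931 and 1414 genes. Scanner-processed signals gave 1054, 699, 1480 and 655, and an offset of 0 gave 615, 397, 1060 and 420. Requiring a signal well above background in every channel of all arrays, which tests fewer genes, left 86, 55 and 61 in the first, the second and the last. Of the calls at day 4 water 13.5% were higher in *quad*, against 31.6% with scanner-processed signals (333 higher, 721 lower), 25% with an offset of 0 (154 and 461) and 26.7% with the strict filter (23 and 63). In the difference from day 2 water 2.63% were higher, against 12.2% with scanner-processed signals (180 and 1300) and 7.08% with an offset of 0. In the difference from day 4 drought 20.7% were higher, against 31.3% and 47.3% with scanner-processed signals and the strict filter, and in that from day 6 water 17.2%, against 39.3% with the strict filter and 31.1% without day 6 water replicate 1 (78 genes higher). Leaving out 1 array gave 213 to 273, 148 to 204, 519 to 580 and 149 to 251 genes. The other alternatives stayed within 1.5 times.

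The replicate number was the same as the dye orientation, and the sources do not say whether it also marked plants grown together. Of 21 pairs of conditions 19 deviated together with r over 0.1, and pairs with day 4 water had r between 0.313 and 0.478. Arrays of 1 scan run had a consensus correlation of 0.4. The source of these shared deviations was not tested. With a replicate block 237, 181, 534 and 183 genes were called, which included all main calls. The cause of the other shifts was not tested.

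Over the alternatives other than leaving out an array, 1114 values of named genes, called or not, stayed on their side of the limits, 7 gained a call and 5 lost one, and 279 of the named differences stayed while 2 lost their call. Signs turned in genes that were not called, namely RBCS1B (-0.52 without replicate 1, 1.27 without replicate 2), BRI1 (0.38 and -0.03) and AT4G20820 (0.08 and -0.03). Sizes of dim genes depend on the signal used. With scanner-processed signals the log2 ratios of CYP94B3, AGP6, AGP11 and EM6 were -4.46, -4.33, -4.85 and -3.09. Those of SAG12, HA9, BRL1 and PDF1.2c were 5.49, -3.86, -2.67 and 2.9. Each value rests on 2 arrays.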

Other observations

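The genes described here were picked from the called genes after their values were seen, so they are examples only. Genes of nectar and scent were among those lower in *quad*. SWEET9 (AT2G39060), the sucrose transporter of nectaries, had normalised log2 intensities of 6.14 and 6.40 in *quad*, against 8.73 and 8.11 in WT, and was at least 4.44-fold lower (limma adjusted p 2.27e-06). cwINV4 (AT2G36190), a cell wall invertase needed for nectar, had 6.63 and 6.89 in *quad*, against 9.32 and 8.28 in WT, a log2 ratio of -2.04. The terpene synthase gene TPS14 (AT1G61680), whose enzyme makes linalool, had 5.93 and 6.58 in *quad*, against 8.99 and 9.01 in WT, at least 6.42-fold lower. BSMT1 (AT3G11480), which methylates benzoate and salicylate, had 5.93 and 6.41 in *quad*, against 9.02 and 9.09 in WT, at least 7.07-fold lower. The values of both genotypes lay apart in each of them, which largely follows from the call. The peptide genes RALFL4 (AT1G28270) and RALFL8 (AT1G61563), the first of which acts in pollen tube integrity, were at least 5.46-fold and 7.73-fold lower.

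Some called genes stood side by side. Of 204 genes called lower with a known place in the gene order, 34 lay in 15 runs of direct neighbours, and of 31 called higher 6 lay in 3 runs. Most runs held relatives, such as LTP4, LTP3 and AT5G59330. One run joined unlike genes on chromosome 3, where BRL3, which is mutated in *quad*, was followed by *sks11* (AT3G13390) and *sks13* (AT3G13400). The log2 ratios at day 4 water were -1.56 for BRL3, -2.51 for *sks11* and -2.94 for *sks13*. At day 2 water *sks11* had 0.05 and *sks13* -0.03, and at day 6 water -0.37 and 0.27.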
